A study of Mus musculus with 30 samples.

Results

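The change from the juvenile to the adult brain was followed in microglia of unchallenged offspring, by setting 3 libraries of P60 Saline + CTRL offspring against 3 libraries of P20 Saline offspring. These 6 libraries were chosen by age and treatment labels alone, out of 30 libraries in 10 groups. All offspring were C57BL/6J mice of both sexes born to dams that were given saline on embryonic day 9.5 of pregnancy, the vehicle control of an injection of the viral RNA mimic poly(I:C), which defines the maternal immune activation (MIA) groups. P20 animals were taken the day before weaning, and P60 animals had been fed control chow since P21 and never received the CSF1R inhibitor used elsewhere in the study. Each of the 6 libraries came from 1 brain, from cells bound to CD11B magnetic beads, which also retain other myeloid cells, so the isolate is enriched for microglia and not sorted to purity. The values are TPM, the share of a transcript among all transcripts of a library with its length and the library size taken into account, for 14225 transcripts of 13483 gene symbols.

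Microglia are the resident macrophages of the brain parenchyma. They arise from yolk sac progenitors, divide and prune synapses during the first weeks after birth, and depend on signaling through the CSF1 receptor to survive. Over the same weeks they acquire a set of sensing receptors, among them the purinergic receptor P2RY12 and the fractalkine receptor CX3CR1, that is used to define the homeostatic adult state.

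The isolates carried the markers of microglia at both ages. The defining markers were abundant in every library, with *Csf1r* between 6797.23 and 9492.03 TPM, *Cx3cr1* between 3275.37 and 4948.48 TPM and *P2ry12* between 2476.65 and 4720.59 TPM. Of 25 cell type markers that the study used for purity, 21 are in the table, 5 each of microglia, oligodendrocytes and astrocytes and 3 each of neurons and endothelium. Among these 21 markers, microglial markers held 94.3% ± 2.82 (SD, n = 3) of the summed TPM at P20 and 97.7% ± 1.69 (SD, n = 3) at P60. Oligodendrocyte markers held 4.98% ± 2.77 (SD, n = 3) at P20 and 1.70% ± 1.39 (SD, n = 3) at P60. The p was 0.2 for both shares in a two-sided exact permutation test, where 3 against 3 libraries allow no p under 0.1, so that no difference in these shares could pass the threshold. On the log scale the mean log2(TPM + 1) of the oligodendrocyte markers was 6.84 at P20 and 5.53 at P60, without overlap (exact permutation test, p = 0.1, the smallest it can give). Astrocyte, neuronal and endothelial markers each held at most 0.441% on average. These shares depend on the few markers used, as broader lists summed to more. A list of 21 astrocyte transcripts summed to 5429 to 10453 TPM at P20 and to 3936 to 13006 TPM at P60. The 23 endothelial and mural transcripts summed to 2772 to 5004 TPM and to 3379 to 5786 TPM, and 26 neuronal transcripts to 593 to 839 TPM and to 398 to 1097 TPM. The read depth, estimated from the spacing of low TPM values, lay between 9.09 and 11.1 times 1e6 reads per library.

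The sexes were not balanced between the ages. *Xist*, the noncoding RNA that coats the inactive X chromosome and is read here as a sign of female tissue, stood at 193.47, 188.02 and 171.83 TPM in the P20 libraries and at 124.09, 0.29 and 0.28 TPM in the P60 libraries. The summed TPM of 4 Y-linked transcripts was at most 0.5 in the P20 libraries and in P60 library 1, and 268.47 and 318.09 in P60 libraries 2 and 3. All 3 P20 libraries and P60 library 1 thus carried the transcripts of females, and P60 libraries 2 and 3 those of males. The *Xist* level was therefore added to the model as a covariate, and the fold change or adjusted p from that model is given for most of the calls described below. P60 library 1 is the P60 library that matches the P20 group in this respect. The MIA groups of the same ages have the same imbalance.

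Between P20 and P60, 499 transcripts (3.51% of 14225) differed at an adjusted p under 0.05 in limma, a linear model fitted to log2(TPM + 1) of all 30 libraries with Benjamini-Hochberg adjustment over all transcripts, and these are the transcripts termed called. Falls outnumbered rises, with 354 called lower at P60 (2.49%) and 145 called higher (1.02%). At an unadjusted p under 0.05, 2334 transcripts (16.4%) differed. In TPM, 954 transcripts (6.71%) were higher in all P60 libraries than in all P20 libraries and 1802 (12.7%) were lower in all of them, and 489 of the 499 called transcripts were among these. The median log2 fold change of all transcripts was -0.06. These shares and this median are the background for the counts of list members given below. The excess of falls partly follows the scaling, as 44.8% of the calls were rises after median-ratio scaling and 43.7% after quantile normalization, against 29.1% with TPM as deposited.

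The number of calls rests on the whole data set and on the composition of the groups. With *Xist* as a covariate 115 transcripts were called, 99 of them among the 499, and with P60 library 1 as the only P60 library 26 were called, 25 of them among the 499. The count was 249 without P60 library 1, 318 without P60 library 2, 249 without P60 library 3, 331 without P20 library 1 and 186 without P20 library 3. When the 6 libraries were fitted without the other 24, 5 transcripts were called. Of 83 called transcripts examined by name, 29 kept the call without each library in turn, 27 kept it with the *Xist* covariate and 19 kept it in both cases. For the 55 that lost it with the *Xist* covariate, the log2 fold change in that model was 47.8% to 125% of its value without the covariate, with a median of 86.8%, and 42 of them held at least 75% of it, so that a lost call does not by itself mean a smaller change. On the X chromosome 17 of 449 transcripts (3.79%) were called, 2 higher and 15 lower, with *Xist* itself among them. On the Y chromosome 0 of 4 were called, where the P60 libraries were widely spread. *Ddx3y*, for example, stood at 0.13, 103.22 and 134.87 TPM at P60 (log2 fold change 4.54, SE 1.56, limma adjusted p = 0.114). These counts therefore do not measure the part of sex. In build GRCm38.p6 5 of the genes whose calls were kept in both cases lie at chr6:49085218-49215469 (*Igf2bp3*), chr8:70629393-70632470 (*Gdf15*), chr11:7206086-7215498 (*Igfbp3*), chr5:134702595-134747368 (*Eln*) and chr4:138775735-138782052 (*Pla2g2d*), all of them protein-coding genes.

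**Figure D1:**
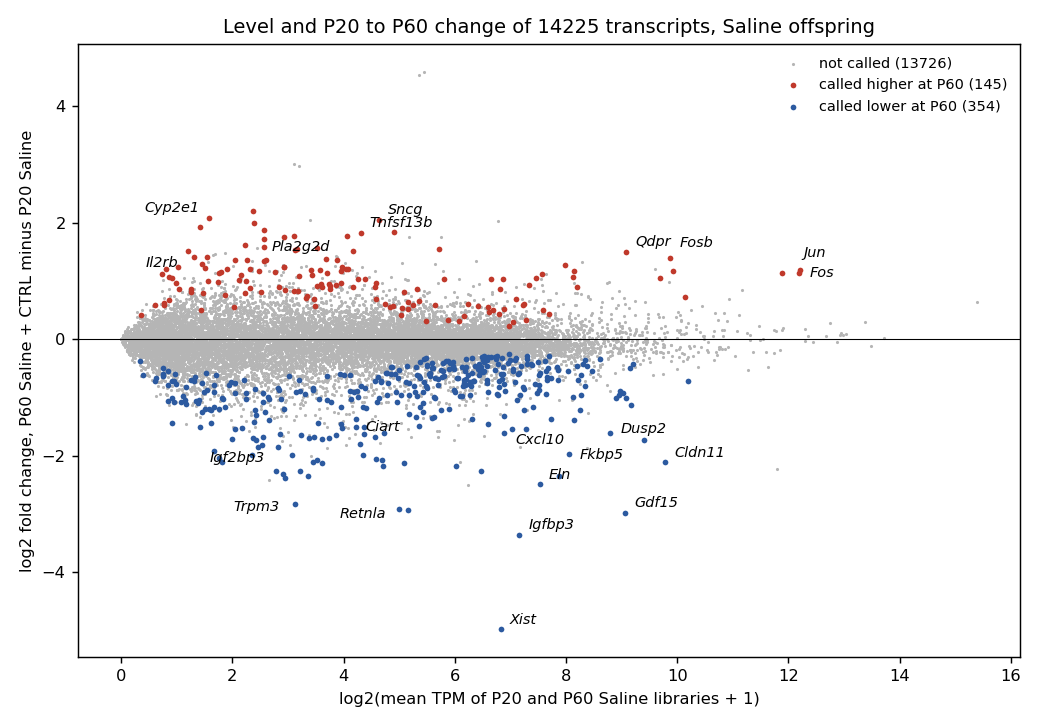
Each point is 1 of 14225 transcripts, with the log2 of its mean TPM over the P20 and P60 Saline libraries plus 1 on the x axis and its log2 fold change from P20 to P60 on the y axis. Red and blue points are the 145 transcripts called higher and the 354 called lower. On this scale falls such as *Igfbp3* (-3.35) lie farther from 0 than rises such as *Cyp2e1* (2.09). The added 1 shrinks the change of low transcripts, as the ratio of mean TPM at P60 to P20 was 34.1 for *Cyp2e1* and 0.093 for *Igfbp3*.

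The smallest adjusted p of the comparison belonged to a fall. *Igf2bp3*, an RNA-binding protein of fetal tissues that binds the *Igf2* mRNA, was measured at 13.53, 11.04 and 12.89 TPM at P20 and at 1.99, 2.85 and 2.40 TPM at P60. All P60 values lay under all P20 values, and the log2 fold change was -1.99 (SE 0.15, limma adjusted p = 5.14e-08). At the earlier ages the mean of the Saline groups was 99.5 TPM at E17 and 71.2 TPM at P7. The fall remained with the *Xist* covariate (-2.0, limma adjusted p = 1.14e-05). Among the 16 transcripts of oncofetal and imprinted growth genes, *Igf2bp3* was the only one called, 14 had a log2 fold change under 0 and the median was -0.50.

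*Gdf15*, a stress-induced cytokine of the TGF-beta superfamily, followed. It was measured at 623.40, 1032.04 and 1197.54 TPM at P20 and at 111.46, 158.10 and 88.30 TPM at P60, without overlap (log2 fold change -2.97, SE 0.31, limma adjusted p = 8.29e-06). Its mean was 260 TPM at P7 and lower still at E17, so that of the 4 ages P20 had the highest mean. With the *Xist* covariate the change was -2.88 (limma adjusted p = 0.00059). *Gdf15* was 1 of the 5 calls that also held when only the 6 libraries were fitted (limma adjusted p = 0.0469). In the growth factor list 2 of 24 transcripts were called lower and 0 higher. The other was *Areg*, which encodes the epidermal growth factor receptor ligand amphiregulin, at 1.29, 2.99 and 6.35 TPM against 0.24, 0.23 and 1.2 TPM. Its call was kept without P20 library 1 or P60 library 3 and was lost without each of the other 4 (limma adjusted p up to 0.18) and with the *Xist* covariate (-1.62, 0.108).

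*Igfbp3*, a binding protein that carries insulin-like growth factors, had the largest fall of all called transcripts apart from *Xist*. The P20 libraries held 284.58, 159.22 and 337.45 TPM and the P60 libraries 23.64, 32.22 and 16.81 TPM (log2 fold change -3.35, SE 0.52, limma adjusted p = 0.000709). *Eln*, which encodes the elastic fiber protein elastin, stood at 344.42, 324.42 and 263.73 TPM at P20 and 70.94, 55.86 and 40.25 TPM at P60 (log2 fold change -2.49, SE 0.40, limma adjusted p = 0.000913). Both genes were non-overlapping between the ages, and with *Gdf15* they were the named transcripts still called when only the 6 libraries were fitted. With the *Xist* covariate the change of *Igfbp3* was -3.29 and that of *Eln* -2.09 (limma adjusted p = 0.0188 and 0.046). In the list of integrins and matrix proteins, which does not hold *Eln*, 2 of 29 transcripts were called lower, the collagens *Col4a2* and *Col3a1*, and the median was -0.08. Their calls were each lost without at least 3 of the 6 libraries (limma adjusted p up to 0.174 and 0.062) and with the *Xist* covariate (-1.03 and -1.14, limma adjusted p = 0.413 and 0.192).

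*Retnla* and *Rnase2a*, products of myeloid cells, were among the 10 largest falls. *Retnla*, which encodes the secreted protein RELMalpha, stood at 78.91, 56.94 and 47.81 TPM at P20 and 17.42, 3.68 and 4.87 TPM at P60 (log2 fold change -2.93, SE 0.45, limma adjusted p = 0.000677). It was near absent at E17 (mean 0.237 TPM) and highest at P7 (mean 246 TPM). *Rnase2a*, an eosinophil-associated ribonuclease, was at 15.50, 12.14 and 7.87 TPM against 2.16, 0.40 and 2.11 TPM (-2.38, limma adjusted p = 0.00513). *Arg1*, which encodes arginase 1 and was singled out after its values were seen, went from 4.90, 3.21 and 6.00 TPM to 0.20, 0.37 and 0.33 TPM (-2.10, limma adjusted p = 0.00866). All 3 genes were lower in every P60 library than in any P20 library. With the *Xist* covariate *Retnla* and *Rnase2a* remained called (-2.24 and -2.48, limma adjusted p = 0.046 and 0.0473), and *Arg1*, at an unreduced -2.19, did not (0.0679). RELMalpha and arginase are also products of border and infiltrating macrophages, and *Lyve1*, a border macrophage receptor, was the 1 called lower of 13 transcripts in that list. It stood at 116.81, 125.05 and 94.98 TPM at P20 and at 65.07, 38.41 and 31.03 TPM at P60 (log2 fold change -1.37, SE 0.35, limma adjusted p = 0.0299), a call that was lost without 5 of the 6 libraries (up to 0.135) and with the *Xist* covariate (-1.12, 0.277). The part of these cells in the falls of *Retnla*, *Rnase2a* and *Arg1* was not tested, and in bulk libraries fewer cells of a type and less RNA per cell cannot be told apart.

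**Figure D2:**
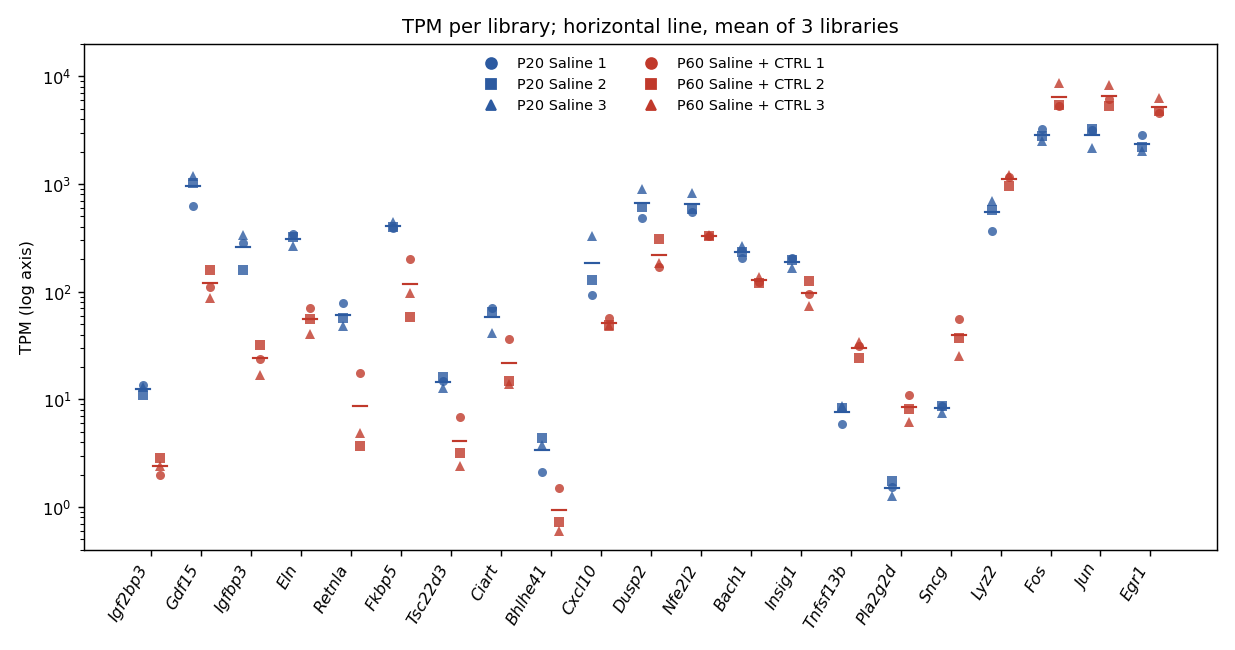
TPM on a log axis for 21 called genes, with blue symbols for the 3 P20 Saline libraries, red symbols for the 3 P60 Saline + CTRL libraries and a horizontal line at the mean of each group. The symbols of both ages are separated for every gene shown, from *Igf2bp3* (11.04 to 13.53 TPM against 1.99 to 2.85 TPM) to *Egr1* (2044.99 to 2826.61 TPM against 4572.77 to 6250.28 TPM).

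No receptor or marker of the homeostatic state passed the test. Of 26 transcripts on that list none was called in either direction by limma, 4 had an unadjusted p under 0.05, and the median log2 fold change was 0.18 with 19 above 0. Over all transcripts 3.51% were called and 16.4% had an unadjusted limma p under 0.05, so both counts among these 26 are near the overall shares. *P2ry12* stood at 3841.16, 4537.97 and 2476.65 TPM at P20 and at 3779.68, 3422.30 and 4720.59 TPM at P60. *Tmem119*, which encodes a membrane protein used to tell microglia from other macrophages, stood at 2713.78, 3433.70 and 2773.87 TPM and at 3165.74, 2354.17 and 3459.46 TPM. The groups overlapped for both genes. *Upk1b*, a tetraspanin of adult microglia, was the member with the smallest p, at 67.94, 65.64 and 17.78 TPM against 134.75, 82.73 and 122.63 TPM. Its groups did not overlap, and its log2 fold change of 1.34 (SE 0.42) did not pass (limma adjusted p = 0.078). *Sall1*, the transcription factor of microglial identity, overlapped at 579.43 to 686.15 TPM against 567.09 to 710.02 TPM.

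Of 29 transcripts of microglial transcription factors, 3 were called lower and 0 higher (median -0.09). *Bach1*, a heme-binding repressor, stood at 203.92, 233.95 and 266.41 TPM at P20 and at 124.01, 121.58 and 135.90 TPM at P60 (log2 fold change -0.87, SE 0.13, limma adjusted p = 0.000548). *Nfe2l2*, which encodes the antioxidant activator NRF2 that competes with BACH1 for the same DNA elements, stood at 549.45, 586.08 and 830.31 TPM and at 328.82, 330.29 and 338.27 TPM (-0.95, SE 0.18, limma adjusted p = 0.00486). Both were separated between the ages and stayed called with the *Xist* covariate (limma adjusted p = 0.00586 and 0.0223). The third, *Bhlhe41*, is described with the clock genes.

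Cell cycle transcripts were already low at P20. *Mki67*, a marker of cycling cells, stood at 4.56, 4.60 and 2.84 TPM at P20 and at 3.84, 3.19 and 2.77 TPM at P60, against a mean of 162 TPM at E17 and 183 TPM at P7. Of 26 mitosis and cell cycle transcripts 1 was called lower, and of 25 DNA replication transcripts 0 were called by limma, with 1 at an unadjusted p under 0.05. The shares over all transcripts were 3.51% called and 16.4% at an unadjusted limma p under 0.05. The called one was *Cdk1*, the mitotic kinase, at 9.46, 7.32 and 7.60 TPM against 4.27, 4.14 and 3.82 TPM (log2 fold change -0.84, SE 0.22, limma adjusted p = 0.0374). Its groups did not overlap, but the call was lost without each of the 6 libraries in turn (limma adjusted p up to 0.135) and with the *Xist* covariate (-0.77, 0.240).

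Immediate early genes, which code for transcription factors and phosphatases among others, were the list with the most called rises. They are induced within minutes of stimulation and also during tissue dissociation. Of 25 transcripts 7 were called higher (*Fos*, *Fosb*, *Jun*, *Egr1*, *Egr2*, *Ier2* and *Klf2*) and 2 lower (*Dusp2* and *Nr4a1*), with a median of 0.47. *Fos* stood at 3242.62, 2816.56 and 2535.43 TPM at P20 and at 5264.25, 5377.97 and 8693.93 TPM at P60 (log2 fold change 1.14, SE 0.26, limma adjusted p = 0.0152). *Jun*, its dimer partner, stood at 3198.63, 3220.12 and 2173.97 TPM and at 6145.91, 5254.64 and 8368.81 TPM (1.2, SE 0.26, limma adjusted p = 0.014). *Egr1*, a zinc finger activator, rose by 1.14 (SE 0.26, limma adjusted p = 0.0172). P60 library 3 was the highest for *Fos*, *Fosb*, *Jun*, *Egr1* and *Klf2*, and P20 library 3 was the lowest for *Fos*, *Jun*, *Egr1* and *Klf2*. Of the 25 transcripts 0 were called higher without P60 library 3, without P20 library 3 or with the *Xist* covariate, and 2 were called higher without P20 library 2. The list's median stayed between 0.37 and 0.60 in the 6 fits without 1 library and was 0.24 with the *Xist* covariate, where the change of *Fos* was 0.63, that of *Jun* 0.85 and that of *Egr1* 0.96 (limma adjusted p = 0.365, 0.245 and 0.201).

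*Dusp2*, a nuclear phosphatase that inactivates MAP kinases, went the other way. It stood at 480.46, 613.80 and 902.68 TPM at P20 and at 168.85, 305.53 and 183.17 TPM at P60 (log2 fold change -1.60, SE 0.23, limma adjusted p = 0.000434). The groups did not overlap, and the call was kept without each library in turn and with the *Xist* covariate (limma adjusted p = 0.006). *Dusp4*, a related phosphatase singled out after its values were seen, went from 39.28, 36.46 and 45.00 TPM to 10.42, 12.24 and 5.30 TPM (-2.06, SE 0.34, limma adjusted p = 0.00109, and 0.0387 with the *Xist* covariate). *Dusp1*, the dual-specificity phosphatase of the immediate early list, was at 1538.34, 1588.79 and 1679.23 TPM at P20 and at 2432.43, 2308.96 and 4182.33 TPM at P60, and was not called (0.84, limma adjusted p = 0.107). *Nr4a1*, an orphan nuclear receptor, was at 1392.71, 1272.63 and 1668.71 TPM against 1074.05, 993.93 and 634.50 TPM (-0.71, limma adjusted p = 0.0422), and its call was lost without 4 of the 6 libraries (up to 0.231) and with the *Xist* covariate (-0.46, 0.439).

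In the list of chemokines and their receptors 4 of 31 transcripts were called lower (*Cxcl10*, *Cxcl1*, *Ccr1* and *Ccrl2*) and 0 higher, with a median of -0.26. *Cxcl10*, an interferon-induced ligand of CXCR3, stood at 93.24, 127.64 and 332.72 TPM at P20 and at 56.81, 49.52 and 48.14 TPM at P60. The groups did not overlap, P20 library 3 was the highest, and the log2 fold change was -1.61 (SE 0.32, limma adjusted p = 0.00603, and 0.0425 without P20 library 3). *Cxcl1*, a neutrophil attractant, stood at 38.79, 60 and 68.39 TPM against 23.83, 19.13 and 20.22 TPM (-1.33, SE 0.34, limma adjusted p = 0.0288). The calls of *Cxcl1*, *Ccr1* and *Ccrl2* were each lost without 5 of the 6 libraries (limma adjusted p up to 0.138, 0.168 and 0.188), and with the *Xist* covariate 0 of the 31 were called, although the changes of *Cxcl10* and *Cxcl1* were -1.39 and -1.67 (0.116 and 0.0627). The abundant *Ccl3* and *Ccl4* overlapped between the ages (*Ccl3* at 1989.96, 2571.82 and 4304.19 TPM against 2250.82, 2211.53 and 1456.96 TPM).

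The interferon-stimulated list had 3 of 46 transcripts called lower, *Cxcl10*, *Ifi204* and *Slfn2*, and 0 higher (median -0.18). *Ifi204*, a DNA-sensing p200 protein, stood at 36.74, 28.22 and 31.40 TPM at P20 and at 20.49, 11.03 and 15.88 TPM at P60 (log2 fold change -1.01, limma adjusted p = 0.0222). *Slfn2*, a regulator of quiescence in immune cells, stood at 109.85, 126.31 and 199.16 TPM and at 76.19, 65.30 and 75.04 TPM (-0.95, limma adjusted p = 0.00784). Both were separated between the ages. *Slfn2* lost its call without P20 library 3 (limma adjusted p = 0.0658), and *Ifi204* lost its call without 4 libraries (up to 0.112). With the *Xist* covariate neither was called, at -1.02 for *Slfn2* and -0.90 for *Ifi204* (limma adjusted p = 0.0573 and 0.204).

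Of 21 cytokine transcripts 4 were called higher, *Tnfsf13b*, *Tnfsf10*, *Tnfsf12* and *Tnfsf8*, and 2 lower, *Osm* and *Tnfsf9*, with a median of -0.07. The 4 that rose and *Tnfsf9*, which fell, all encode ligands of the TNF superfamily. The number called higher was 1 without P60 library 1, P60 library 3 or P20 library 1. *Tnfsf13b*, which encodes the B cell survival factor BAFF, stood at 5.93, 8.38 and 8.76 TPM at P20 and at 31.55, 23.98 and 34.19 TPM at P60. The lowest P60 value lay well above the highest P20 value, and the log2 fold change of 1.83 (SE 0.29, limma adjusted p = 0.000913) was kept with the *Xist* covariate (1.62, limma adjusted p = 0.0382). *Tnfsf10*, which encodes the death ligand TRAIL, stood at 9.74, 7.40 and 7.87 TPM against 23.30, 19.47 and 20.19 TPM (1.24, SE 0.34, limma adjusted p = 0.042). Although its groups did not overlap, the call was lost without each library in turn (limma adjusted p up to 0.128) and kept with the *Xist* covariate (1.72, 0.0442). *Tnfsf12* and *Tnfsf8* had changes of 0.58 and 0.81, and each lost its call without 4 of the 6 libraries, with the replicate block and with the *Xist* covariate (0.66 and 1.00, limma adjusted p = 0.130 and 0.108). *Osm*, an interleukin 6 family cytokine, stood at 249.27, 329.91 and 669.32 TPM against 164.33, 146.56 and 127.01 TPM (-1.38, SE 0.32, limma adjusted p = 0.0167), and was not called without P20 library 3 (0.123) or P60 library 3 (0.0697) or with the *Xist* covariate (-1.15, 0.205). *Tnfsf9*, the ligand of 4-1BB, stood at 73.92, 114.15 and 429.60 TPM against 64.60, 59.72 and 37.33 TPM (-1.53, limma adjusted p = 0.0372), with P20 library 3 the highest, and its call was lost without 4 of the 6 libraries (up to 0.241, without P20 library 3) and with the *Xist* covariate (-1.10, 0.383). For the interleukin 1 genes the groups overlapped, as *Il1b* stood at 218.68, 342.69 and 810.92 TPM against 263.16, 312.64 and 193.55 TPM.

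Both lists of antigen presentation genes had medians above that of all transcripts, with few members past the threshold. Of 10 MHC class II transcripts 1 was called higher and 0 lower (median 0.51), and 4 were higher in all P60 libraries. The shares over all transcripts were 1.02% called higher and 6.71% higher in all P60 libraries. *H2-Aa*, a class II alpha chain, stood at 127.72, 253.53 and 160.22 TPM at P20 and at 506.67, 316.01 and 302.92 TPM at P60 (log2 fold change 1.07, SE 0.30, limma adjusted p = 0.0469). The beta chain *H2-Ab1* had values of 122.62, 273.74 and 178.08 TPM and of 503.15, 326.51 and 278.16 TPM (0.97, limma adjusted p = 0.052). The call of *H2-Aa* was kept without P20 library 2 and lost without each of the other 5 libraries (limma adjusted p up to 0.21) and with the *Xist* covariate (1.26, 0.130). Of 20 MHC class I and peptide loading transcripts 1 was called higher, *Psmb9*, an immunoproteasome subunit, at 58.55, 109.09 and 71.66 TPM against 147.32, 115.36 and 168.48 TPM (0.87, limma adjusted p = 0.0161). Its groups were separated, and its call was lost without 4 of the 6 libraries (up to 0.0899) and with the *Xist* covariate, where its change was 0.88 (0.119). *Lyz2*, which encodes lysozyme, was called higher on the list of disease-associated and axon tract microglia genes, of which 1 of 26 rose and 1 fell. It stood at 369.66, 574.88 and 697.11 TPM at P20 and at 1158.86, 961.39 and 1206.14 TPM at P60 (1.06, SE 0.24, limma adjusted p = 0.0167), and was not called without P20 library 1 (0.0969), P60 library 1 (0.059) or P60 library 3 (0.0691) or with the *Xist* covariate (1.03, 0.131).

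The largest rises by fold were in transcripts of low or moderate level. *Pla2g2d*, a secreted phospholipase of immune tissue, stood at 1.53, 1.73 and 1.26 TPM at P20 and at 11.04, 8.14 and 6.12 TPM at P60 (log2 fold change 1.88, SE 0.23, limma adjusted p = 8.87e-05). *Sncg*, which encodes gamma-synuclein, stood at 8.60, 8.77 and 7.42 TPM and at 56.10, 36.83 and 25.22 TPM (2.05, SE 0.40, limma adjusted p = 0.00564). *Cyp2e1*, an alcohol-metabolizing cytochrome P450, stood at 0.18, 0.00 and 0.16 TPM and at 5.14, 2.38 and 4.06 TPM (2.09, SE 0.31, limma adjusted p = 0.000548). All 3 were separated between the ages, kept their calls without each library in turn and kept them with the *Xist* covariate (limma adjusted p = 0.000308, 0.0294 and 5.39e-05). The noncoding transcripts *C030029H02Rik* and *AW112010* rose by 2.20 and 1.84 (limma adjusted p = 0.00197 and 0.000913, and 0.00681 and 0.00411 with the *Xist* covariate). *AW112010* was at 10.55, 14.41 and 10.70 TPM at P20 and at 63.74, 35.50 and 39.50 TPM at P60.

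Outside the lists and singled out after its values were seen, *Klk8* rose at a higher level. *Klk8*, a secreted serine protease, went from 26.65, 30.83 and 20.55 TPM to 86.22, 63.26 and 83.98 TPM (log2 fold change 1.55, SE 0.22, limma adjusted p = 0.000476). Its groups did not overlap between the ages, and it remained called with the *Xist* covariate (limma adjusted p = 0.0152).

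Transcripts induced by glucocorticoids, the adrenal hormones that act through the receptor encoded by *Nr3c1*, were lower at P60 where called. Of 25 transcripts 2 were called lower and 0 higher (median -0.39). *Fkbp5*, a co-chaperone of the glucocorticoid receptor, stood at 392.93, 400.65 and 441.78 TPM at P20 and at 200.44, 58.50 and 97.70 TPM at P60 (log2 fold change -1.96, SE 0.39, limma adjusted p = 0.00655). *Tsc22d3*, an X-linked gene, encodes the glucocorticoid-induced leucine zipper. Its called transcript stood at 14.79, 16.24 and 12.78 TPM and at 6.79, 3.2 and 2.38 TPM (-1.69, SE 0.31, limma adjusted p = 0.00285). The ages were separated for both genes, and P60 library 1, the P60 library with *Xist*, held the highest P60 value of each. Both calls were kept without each library in turn and lost with the *Xist* covariate (limma adjusted p = 0.0943 and 0.0794), where the changes were -1.82 and -1.45. The mean of *Fkbp5* was 110 TPM at both E17 and P7. *Sgk1*, a hormone-induced kinase, stood at 100.08, 89.59 and 78.73 TPM against 62.43, 64.09 and 75.20 TPM in its most abundant transcript and was not called (-0.40, limma adjusted p = 0.242).

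Of 20 circadian clock transcripts, 2 were called lower and 0 higher (median -0.06). *Ciart*, a repressor of the CLOCK-BMAL1 activator, stood at 69.91, 64.23 and 41.40 TPM at P20 and at 36.69, 14.79 and 13.93 TPM at P60 (log2 fold change -1.49, SE 0.28, limma adjusted p = 0.00454). *Bhlhe41*, a second E-box-binding repressor, stood at 2.11, 4.33 and 3.74 TPM and at 1.51, 0.72 and 0.60 TPM (-1.17, SE 0.20, limma adjusted p = 0.00133). Neither overlapped, P60 library 1 was again the highest P60 library for each, and both calls were lost with the *Xist* covariate (-0.88 and -0.85, limma adjusted p = 0.189 and 0.0794). *Dbp*, a clock output with strong daily cycling, stood at 69.18, 87.50 and 32.55 TPM at P20 and at 197.57, 114.92 and 37.50 TPM at P60. *Nr1d1*, the heme-sensing repressor REV-ERBalpha, stood at 93.41, 122.96 and 110.65 TPM and at 147.13, 98 and 56.84 TPM. For *Dbp* and *Nr1d1* the groups overlapped with a wide spread within each age.

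The promoters of *Ciart* and *Bhlhe41* are printed because CLOCK-BMAL1 binds the E-box CACGTG, here in capitals. Each run is the 250 bases before the start that the RefSeq promoter table gives, 5′ to 3′ on the gene's strand, in build GRCm38.p6. For *Ciart* that start lies 29 bases inside the RefSeq gene model, so the run overlaps the gene there, and for the other 4 genes printed here the starts are the same. The *Ciart* run is chr3:95882229-95882478 and the *Bhlhe41* run chr6:145865421-145865670, both on the minus strand.
Ciart: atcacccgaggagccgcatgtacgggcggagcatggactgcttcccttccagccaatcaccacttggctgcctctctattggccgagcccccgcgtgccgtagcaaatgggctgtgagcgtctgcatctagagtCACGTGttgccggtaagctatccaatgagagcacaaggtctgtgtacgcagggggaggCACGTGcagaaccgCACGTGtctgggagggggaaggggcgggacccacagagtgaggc
Bhlhe41: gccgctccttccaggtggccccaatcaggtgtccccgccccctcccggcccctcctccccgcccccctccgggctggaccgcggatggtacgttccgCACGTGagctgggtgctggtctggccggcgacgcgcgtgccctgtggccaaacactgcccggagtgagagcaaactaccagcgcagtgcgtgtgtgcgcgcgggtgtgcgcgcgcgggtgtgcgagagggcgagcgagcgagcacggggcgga
The *Ciart* run holds 3 E-boxes, whose first bases lie 116, 58 and 44 bases before the start in that table, and the *Bhlhe41* run holds 1, at 153 bases. The E-box reads the same on both strands and occurred in 8.21% of 10158 promoters of this length that matched the table, with 3 or more in 11 of them (0.108%). It occurred in 38 of 264 matched promoters of transcripts called lower (14.4%) and in 6 of 107 of those called higher (5.61%), counts that describe letters and not binding.

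The promoters of *Cxcl10*, *Cxcl1* and *Fos* are printed in the same way, for the largest called chemokine fall, the called neutrophil attractant and the most studied immediate early rise. Capitals mark the NF-kB motif in *Cxcl10* and *Cxcl1*, the core of the interferon-stimulated response element in *Cxcl10*, where it lies farther from the start, and the core TGACG of the cyclic AMP response element in *Fos*, each searched on both strands. The runs are chr5:92348890-92349139 on the minus strand for *Cxcl10*, chr5:90890995-90891244 on the plus strand for *Cxcl1* and chr12:85473640-85473889 on the plus strand for *Fos*.
Cxcl10: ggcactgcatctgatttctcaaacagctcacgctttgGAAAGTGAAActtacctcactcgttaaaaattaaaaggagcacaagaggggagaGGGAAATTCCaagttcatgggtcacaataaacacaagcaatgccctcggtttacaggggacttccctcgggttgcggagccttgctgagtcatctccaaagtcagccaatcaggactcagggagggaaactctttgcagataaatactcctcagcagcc
Cxcl1: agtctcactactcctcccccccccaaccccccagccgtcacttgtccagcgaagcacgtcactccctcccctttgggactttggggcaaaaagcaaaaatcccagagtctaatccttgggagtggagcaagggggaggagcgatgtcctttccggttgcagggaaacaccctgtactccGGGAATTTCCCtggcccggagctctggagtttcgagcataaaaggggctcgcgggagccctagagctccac
Fos: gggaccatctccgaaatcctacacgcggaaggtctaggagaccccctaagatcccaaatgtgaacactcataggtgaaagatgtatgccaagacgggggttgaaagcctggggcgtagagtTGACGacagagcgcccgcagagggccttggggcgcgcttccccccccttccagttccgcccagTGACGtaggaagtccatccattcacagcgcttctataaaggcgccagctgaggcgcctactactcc
In *Cxcl10* the NF-kB motif in the searched form begins 159 bases and the interferon core 213 bases before the start. In *Cxcl1* a match on each strand overlaps, beginning 71 and 70 bases before the start, and in *Fos* TGACG begins 129 and 66 bases before it. Of the 10158 promoters, 1.22% held the NF-kB motif in the searched form, 2.64% the interferon core and 25.5% the TGACG core. TGACG occurred in 32.2% of the promoters of transcripts called lower and in 19.6% of those called higher. For the NF-kB motif these shares were 1.89% and 2.80%, and for the interferon core 3.03% and 2.80%.

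Every measured transcript of cholesterol synthesis had a log2 fold change under 0, 23 of 23, with a median of -0.56. Of these 2 passed the test, both lower. *Insig1*, the endoplasmic reticulum protein that holds back SREBP processing and is itself an SREBP target, stood at 203.87, 195.64 and 165.21 TPM at P20 and at 94.74, 126.33 and 73.39 TPM at P60 (log2 fold change -0.96, SE 0.16, limma adjusted p = 0.00166). Its groups were separated between the ages, and it was not called with the *Xist* covariate (-0.81, limma adjusted p = 0.0655). *Sqle*, squalene epoxidase, stood at 134.29, 74.05 and 67.84 TPM against 43.64, 65.97 and 26.96 TPM and was not called (-1.02, limma adjusted p = 0.16). Oligodendrocytes also make cholesterol for myelin, and their part in these falls was not tested. With the mean level of the myelin list as a covariate the median of the cholesterol list was -0.09 and 1 of 23 was called lower. That covariate also moved the median of all transcripts from -0.06 to 0.07 and the number called from 499 to 2351. The median of the cholesterol list was -0.37 with the mean level of the choroid plexus list as a covariate and -0.50 with *Xist*.

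**Figure D3:**
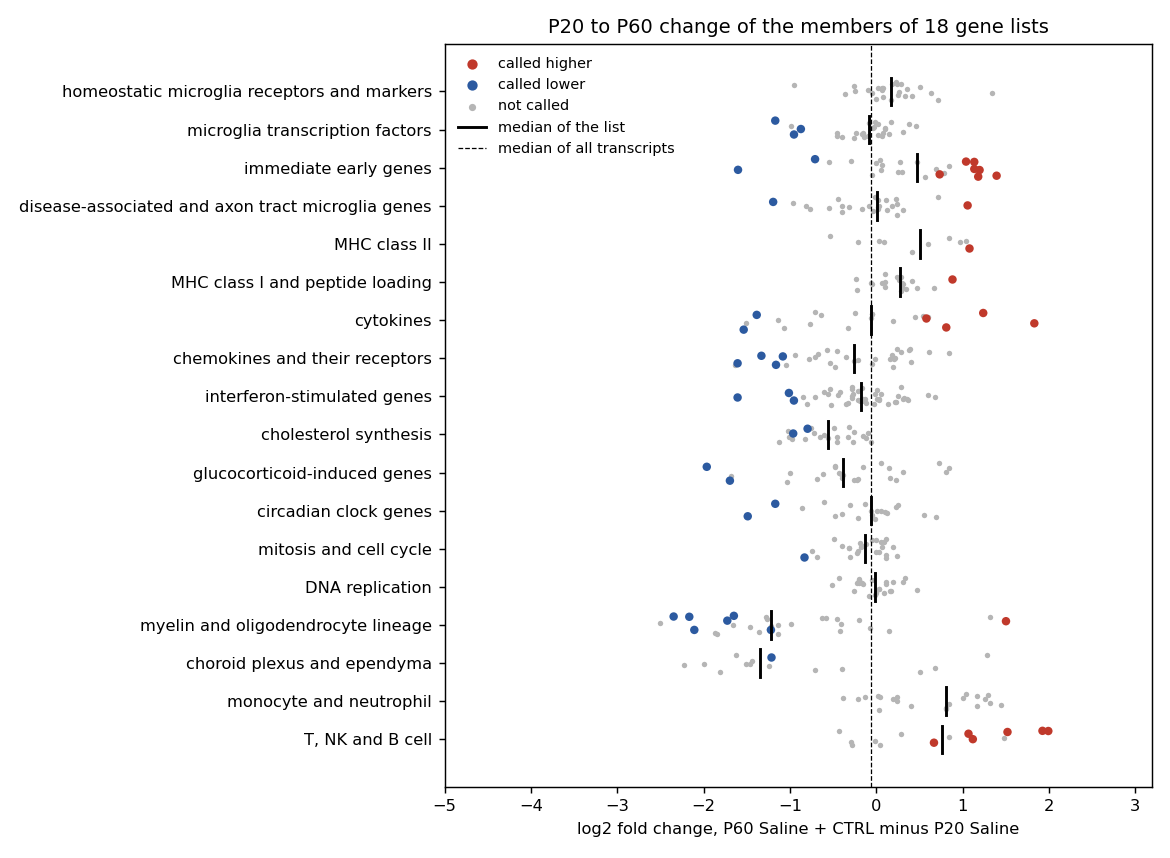
Log2 fold change from P20 to P60 (x axis) of every measured member of 18 gene lists (rows), with called members in red or blue, a black bar at the median of each list and a dashed line at the median of all transcripts (-0.06). The bar of the homeostatic list lies near the line at 0.18, those of the myelin and choroid plexus lists lie to the left at -1.22 and -1.34, and that of the immediate early list lies to the right at 0.47.

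Lists of clearance, metabolism and translation showed few calls or none, against 3.51% of all transcripts called and 16.4% at an unadjusted limma p under 0.05. At that share lists of this size would hold few calls, so the counts are not read as a result about the lists. By limma 0 of 32 phagocytosis transcripts, 0 of 16 of the CSF1 receptor axis, 0 of 24 of glycolysis and 0 of 68 of nuclear-encoded oxidative phosphorylation were called, with 4, 3, 2 and 3 at an unadjusted p under 0.05. Of 42 lysosomal transcripts 3 were called lower (*Gla*, *Atp6v1a* and a transcript of *Lamp2*, median -0.02). *Gla* and *Lamp2* lie on the X chromosome. *Gla*, the alpha-galactosidase that clears glycolipids, stood at 46.48, 54.31 and 79.50 TPM at P20 and at 21.30, 23.77 and 28.04 TPM at P60 (log2 fold change -1.24, limma adjusted p = 0.00877), without overlap, and was not called without P20 library 3 (0.0661) but was with the *Xist* covariate (0.0467). Of 79 cytosolic ribosomal protein transcripts 3 were called lower (*Rpl12*, *Rpl6* and *Rplp0*, median -0.13), the largest *Rpl12* at -0.78. *Lamp2* and *Atp6v1a* were called in none of the fits without 1 library, and *Rpl12* was not called without 3 of the 6 (limma adjusted p up to 0.105). Of 11 transcripts of the phagocyte NADPH oxidase 1 was called lower, a transcript of *Ncf1* listed as noncoding, at 12.40, 10.63 and 16.62 TPM against 3.98, 3.31 and 3.25 TPM (-1.64, SE 0.20, limma adjusted p = 9.11e-05, and 0.00337 with the *Xist* covariate). It did not overlap between the ages. Its coding partner in the table stood at 1.14, 1.82 and 4.24 TPM against 1.08, 1.09 and 0.79 TPM, and reads that both transcripts share could be split between them by the counting.

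Marker lists of other cells also differed in level between libraries, and their part in the counts above was not tested beyond the covariate fits given here. The myelin and oligodendrocyte list of 29 transcripts had a summed level of 11005, 7148 and 5044 TPM at P20 and of 4187, 7306 and 3654 TPM at P60, which overlapped. Its median log2 fold change was -1.22, with 6 transcripts called lower and 1 higher. *Cldn11*, a tight junction protein of myelin, stood at 2106.93, 1281.85 and 792.88 TPM at P20 and at 250.54, 720.21 and 147.03 TPM at P60 (-2.11, SE 0.54, limma adjusted p = 0.0321). *Mag*, the myelin-associated glycoprotein, stood at 1549.03, 885.21 and 602.38 TPM against 247.69, 597.34 and 153.24 TPM (-1.72, SE 0.44, limma adjusted p = 0.0317). Neither gene overlapped between the ages, but 0 of the list were called lower without P60 library 3, P60 library 1 or P20 library 1, and 12 were without P60 library 2. With the *Xist* covariate 0 of the list were called lower and the median was -0.95, with *Cldn11* at -1.83 and *Mag* at -1.45 (limma adjusted p = 0.252 and 0.272). *Qdpr*, a pteridine reductase on this list, rose instead, from 293.39, 271.92 and 198.76 TPM to 714.53, 1415.92 and 359.69 TPM (1.5, SE 0.34, limma adjusted p = 0.0152), and was not called without P60 library 2 (0.0889) or P20 library 3 (0.084) but was with the *Xist* covariate (0.0332). With the mean level of this list as a covariate 2351 transcripts were called instead of 499, and 433 of the 499 were among them.

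The choroid plexus and ependyma list of 14 transcripts had a summed level of 3681, 7300 and 6782 TPM at P20 and of 2808, 1378 and 550 TPM at P60, so that every P20 library was above every P60 library. Its median was -1.34, 6 members were lower in all P60 libraries and 1 was called lower, a transcript of *Enpp2*, which oligodendrocytes also express. Over all transcripts 12.7% were lower in all P60 libraries and 2.49% were called lower. *Ttr*, the transthyretin that dominates choroid plexus RNA, stood at 3455.47, 7011.92 and 6508.53 TPM at P20 and at 2592.59, 1211.44 and 485.66 TPM at P60 and was not called (-2.23, SE 0.69, limma adjusted p = 0.0756). *Trpm3*, an ion channel of that epithelium, was among the largest called falls, at 9.72, 13.84 and 18.49 TPM against 3.48, 0.71 and 0.13 TPM (-2.83, SE 0.54, limma adjusted p = 0.00442), as was *Cldn1*, a tight junction claudin, at 13.30, 17.22 and 17.56 TPM against 4.68, 2.12 and 1.05 TPM (-2.35, limma adjusted p = 0.0243). *Trpm3* kept its call without each library in turn, *Cldn1* lost it without 4 of them (limma adjusted p up to 0.114), and neither was called with the *Xist* covariate (-2.05 and -1.87, 0.142 and 0.272). With the mean level of this list as a covariate 68 of the 83 named calls remained, those of *Trpm3* and *Cldn1* as well as those of *Igf2bp3*, *Gdf15*, *Igfbp3*, *Eln* and *Retnla*.

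Both marker lists of blood leukocytes had medians above 0. For the 21 monocyte and neutrophil transcripts the summed level was 320, 812 and 445 TPM at P20 and 935, 1088 and 975 TPM at P60, without overlap. None was called by limma (2 at an unadjusted p under 0.05), 8 were higher in all P60 libraries and the median was 0.81. Over all transcripts 3.51% were called, 16.4% had an unadjusted limma p under 0.05 and 6.71% were higher in all P60 libraries. Among the 14 T, NK and B cell transcripts 6 were called higher and 0 lower (median 0.76), although the summed level of 41, 58 and 44 TPM at P20 and of 101, 41 and 70 TPM at P60 overlapped. *Il2rb*, the interleukin 2 receptor beta chain of lymphocytes, stood at 0.23, 0.00 and 0.32 TPM against 3.2, 1.53 and 2.61 TPM (log2 fold change 1.52, SE 0.20, limma adjusted p = 0.000135), and its call was kept without each library in turn and with the *Xist* covariate (0.00586). *Gzma*, a granzyme of cytotoxic lymphocytes, stood at 0.72, 0.95 and 0.98 TPM against 8.47, 2.51 and 11.62 TPM (1.99, SE 0.52, limma adjusted p = 0.0324, and 0.225 with the *Xist* covariate at a change of 1.81). *Ncr1*, the natural killer receptor NKp46, was listed at 0 in all 3 P20 libraries and at 2.44, 0.38 and 1.16 TPM at P60. The called members included *Il2rb*, *Gzma*, *Gzmb*, *Ncr1* and *Prf1*, and 1 of the 14 was called without P20 library 1, P20 library 3, P60 library 1 or P60 library 3 and 2 with the *Xist* covariate. Lymphocytes or myeloid cells of the blood also express *H2-Aa*, *H2-Ab1*, *Psmb9* and *Lyz2*, and their part in the values of these genes was not tested.

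**Figure D4:**
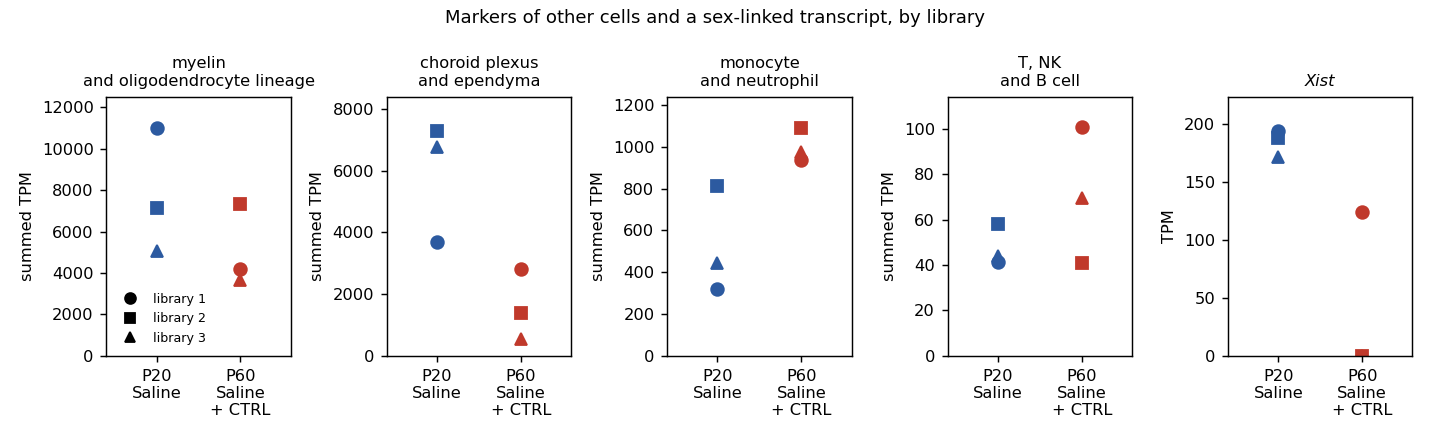
Summed TPM of 4 marker lists of other cells and TPM of *Xist* (y axes, each from 0) in the 3 P20 Saline and 3 P60 Saline + CTRL libraries, with one symbol per library number. Choroid plexus markers fall from 3681 to 7300 TPM to 550 to 2808 TPM, monocyte and neutrophil markers rise from 320 to 812 TPM to 935 to 1088 TPM, and *Xist* is at 0.29 and 0.28 TPM in P60 libraries 2 and 3.

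The same ages were compared in the MIA offspring, whose libraries are not shared with the Saline comparison. There 370 transcripts (2.6%) were called, 146 higher (1.03%) and 224 lower (1.57%). Of the 499 transcripts called in Saline offspring, 487 (97.6%) had the same direction of change in MIA offspring, against 9565 of all 14225 (67.2%). The transcripts called in both numbered 160, 35 higher and 125 lower, which were 32.1% of the calls in Saline and 43.2% of the calls in MIA offspring, and none changed direction. The imbalance of *Xist* between the ages is the same in both arms, so this likeness holds for age and sex together. *Igf2bp3* had a log2 fold change of -2.22 in MIA offspring (limma adjusted p = 4.84e-09), *Gdf15* of -3.10 (3.7e-06), *Igfbp3* of -3.31 (0.00112) and *Eln* of -2.69 (0.000596). Among the rises, *Pla2g2d* and *Tnfsf13b* were called in MIA offspring as well (1.23 and 1.35, limma adjusted p = 0.00497 and 0.0142).

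Calls present in the Saline arm alone were not shown to differ between the arms. The difference of the change, tested as an interaction, passed for 0 of the 14225 transcripts in limma (0%), and 473 (3.33%) had an unadjusted p under 0.05. *Cxcl1*, for example, changed by -1.33 in Saline and by 0.13 in MIA offspring (limma adjusted p = 0.88), and *Gzmb* by 1.93 and 0.25 (0.823). *Fos* rose by 1.14 in Saline and had a change of 0.87 in MIA offspring (limma adjusted p = 0.0678). The immediate early list had 1 called rise and 2 called falls in MIA offspring with a median of 0.02, against 7 and 2 with a median of 0.47 in Saline offspring. For the cholesterol list the medians were -0.16 in MIA and -0.56 in Saline offspring. The lists' differences between the arms were not tested.

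**Figure D5:**
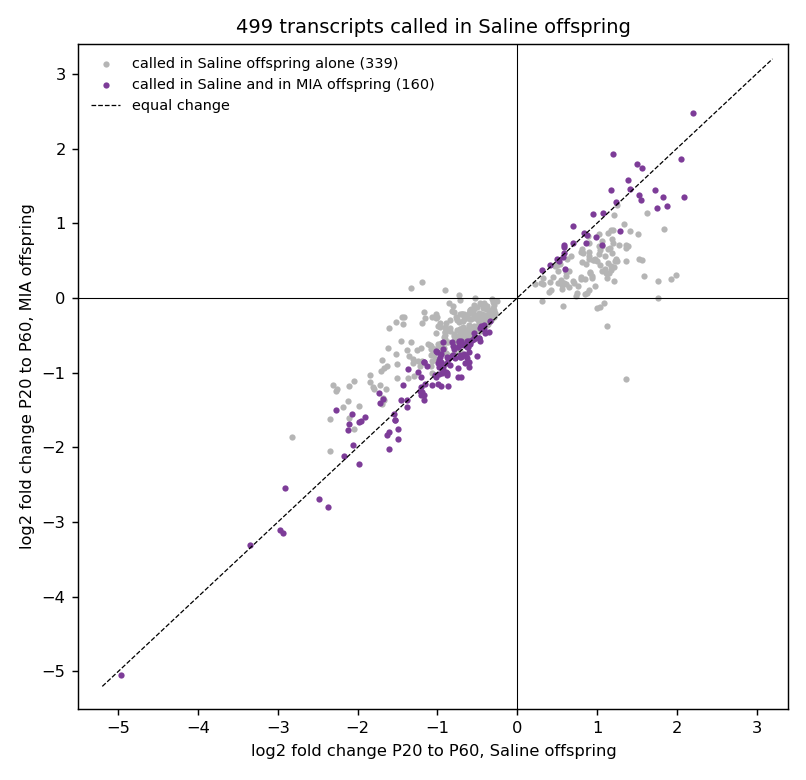
Log2 fold change from P20 to P60 in Saline offspring (x axis) against that in MIA offspring (y axis) for the 499 transcripts called in Saline offspring. Purple points are the 160 called in both arms and the dashed line marks equal change, and 487 of the 499 points lie in the quadrants of equal direction.

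Over the 5 modules into which the study clustered its transcripts by expression across these same samples, the calls were counted. The module named AM held 100 of the 145 transcripts called higher and 0 called lower among 3276 transcripts. JM held 1 called higher and 123 called lower among 2318, IM 11 and 145 among 4681, MIA-IM 11 and 55 among 2816 and REP-AM 22 and 31 among 1134. Since the modules were formed on these libraries, the counts are a description and not independent evidence of direction.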

How the data were processed

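Microglia of 6 offspring were compared, 3 at P20 and 3 at P60, out of 30 libraries sequenced as non-stranded poly(A) RNA-seq. The authors aligned reads to mm10 with Rsubread, counted them per gene model with featureCounts, kept transcripts with at least 2 CPM in at least 3 libraries and deposited TPM, whose formula is not stated. Without strand, overlapping and antisense genes cannot be told apart. No counts were used here. The deposited TPM were analysed as log2(TPM + 1) in limma 3.58.1 (lmFit, eBayes with trend, R 4.3.3), with 10 groups in 1 model and 20 residual degrees of freedom, two-sided tests and Benjamini-Hochberg adjustment over 14225 transcripts, threshold 0.05. Fold changes on this scale understate the change of low transcripts. The read depth is an estimate: 72.7 to 75.1% of low TPM lay within 0.2 of a multiple of 1 read, against 40% by even spread, so whole reads were not recovered. The precision is limited by 3 animals a group. No covariate entered the main model. The numbers in the labels do not pair animals across ages.

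Gene lists (49) were described by counts and medians, with no set test. Named were, of called transcripts that did not overlap, the 10 largest rises and falls by fold and the 5 by TPM. Added were up to 4 called members per list in each direction, the smallest p of lists with no call, and marker and sex-linked genes. Transcripts with the smallest p of all for the difference between the arms were named as well. Further list members are printed to show values that overlapped or did not pass, and were chosen after their values were seen. The members and lists were chosen with earlier results of these data known. The fit was tested on simulated data. Promoters came from RefSeq (GRCm38.p6). Alternatives were another pseudocount, a filter on mean TPM, 2 other scalings, no trend, fewer libraries, a replicate block, each library left out, and *Xist* or marker levels as covariates. Some called transcripts are not reported here.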

Additional observations from a re-analysis of the deposited data

Results flagged for a closer look

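One named transcript was separated between the ages in both arms and in opposite directions. A transcript of *Tspan4*, which encodes a tetraspanin of migrating cells, stood at 5.78, 9.18 and 7.22 TPM in P20 Saline and at 15.03, 9.89 and 11.52 TPM in P60 Saline + CTRL offspring (log2 fold change 0.65, limma adjusted p = 0.107). In MIA offspring it stood at 11.83, 13.46 and 7.81 TPM at P20 and at 5.53, 6.38 and 7.15 TPM at P60 (-0.69, limma adjusted p = 0.0937). Neither pair of groups overlapped. The change in MIA minus that in Saline offspring was -1.33 (SE 0.31), with an unadjusted p of 0.00025 and an adjusted p of 0.984 over all transcripts in limma, so the difference failed the correction. It was found by looking over all named transcripts for opposite directions without overlap. *Snora41*, a small nucleolar RNA whose groups overlapped in Saline offspring, had a change of 1.36 there (limma adjusted p = 0.0492) and of -1.09 in MIA offspring (0.135), a difference of -2.45 with an unadjusted p of 0.000154 and an adjusted p of 0.984. For *Kbtbd4*, also overlapping in Saline offspring, the changes were -0.21 and 0.67 and the difference 0.89 (unadjusted p of 0.000474, limma adjusted p of 0.984). *Tspan4*, *Snora41* and *Kbtbd4* had the smallest unadjusted p of all transcripts for this difference and were named by that rule. Their unadjusted p are therefore selected values and not separate evidence.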

How the results depend on the processing

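The direction of all 83 named calls was the same in every alternative that gave a value, and the calls differed. Where the groups did not overlap, a fit without 1 library could not reverse the direction, so there it is no test. The count of 499 in Saline offspring was 5 when only the groups compared were fitted, 115 with the *Xist* covariate, 2351 with the myelin covariate, 967 with the choroid plexus covariate (chosen after seeing the data) and 26 with P60 library 1 as the only P60 library. Without 1 library each it ranged from 186 to 383. Other settings gave 377 to 484, and median-ratio scaling and quantile normalization raised the share of rises from 29.1% to 44.8% and 43.7%. In MIA offspring the count of 370 was 450 when only the groups compared were fitted, 628 after quantile normalization, 111 with *Xist*, 3003 with myelin, 1874 with choroid plexus and 96 with P60 library 1 only, and 100 to 225 without 1 library. For the difference between arms it was 0 throughout, except 1 without P20 Saline library 3, so its leave-one-out range was 0 to 1. Why the counts moved was not tested. The difference in the microglial share ranged from 1.81 to 4.36 percentage points without 1 library and that in the oligodendrocyte share from -4.30 to -1.71. A mean TPM filter of 1, a pseudocount of 0.1 and eBayes without trend kept 81 of 81, 72 and 78 of the named calls.

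Same-numbered P20 and P60 libraries did not deviate together (r of 0.000996, -0.227 and 0.231), so they share only a number. With the replicate block 393 transcripts were called in Saline and 327 in MIA offspring, and 0 for the difference.

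With 3 animals a group, the sexes were unevenly spread over the ages. Age and sex cannot therefore be fully told apart, whether a call was lost or kept with the *Xist* covariate. That model takes 1 slope for *Xist* over all 30 libraries, and only P60 library 1 matches the P20 group. With P60 library 1 as the only P60 library, the log2 fold change was -1.73 for *Retnla*, -2.11 for *Eln* and -3.34 for *Igfbp3*. With all 3 P60 libraries it was -2.93, -2.49 and -3.35. The depth of 9.09 to 11.1 times 1e6 reads leaves transcripts near 1 TPM, such as *Ncr1* and *Gzmb*, resting on few reads.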

Other observations

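Other named transcripts changed as well. The long noncoding transcript *9630013A20Rik* stood at 107.88, 29.46 and 28.65 TPM at P20 and at 5.5, 11.77 and 1.77 TPM at P60 (log2 fold change -2.91, SE 0.55, limma adjusted p = 0.00442), with P20 library 1, which had the highest summed myelin markers (11005 TPM), the highest by far. With the *Xist* covariate it was not called (-2.53, limma adjusted p = 0.0952). *Adh1*, a retinol and alcohol dehydrogenase, stood at 4.48, 1.46 and 2.79 TPM and at 17.18, 12.37 and 7.28 TPM (1.77, SE 0.39, limma adjusted p = 0.014), while its change in MIA offspring was 0.23 (0.817), and its call was lost without P20 library 2 (0.062) or P60 library 1 (0.0733) and kept with the *Xist* covariate (0.0388). *Tagln*, an actin-binding protein of smooth muscle and the 1 called of 23 endothelial and mural transcripts, stood at 116.24, 100.67 and 113.94 TPM and at 243.18, 219.94 and 175.23 TPM (0.93, SE 0.23, limma adjusted p = 0.0247). Its call was kept without P60 library 3 and lost without each other library (up to 0.101) and with the *Xist* covariate (1.14, 0.0634).

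Small nucleolar RNAs, which poly(A) selection captures only in part, appeared on both sides. *Snora23* stood at 8.55, 10.62 and 15.54 TPM at P20 and at 1.62, 1.5 and 1.32 TPM at P60 (-2.31, SE 0.49, limma adjusted p = 0.0102), and *Snora78* at 16.03, 3.56 and 3.64 TPM and at 17.06, 28.03 and 26.30 TPM (1.77, SE 0.49, limma adjusted p = 0.0449). Without P20 library 3 the adjusted p of *Snora23* was 0.0581, and that of *Snora78* was up to 0.203 without 1 library, and with the *Xist* covariate neither was called (-2.05 and 1.99, limma adjusted p = 0.131 and 0.149).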
